A study of Mus musculus with 8 samples.

Results

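Autophagy and mitophagy genes were examined in mouse splenic cDC1, the conventional dendritic cells specialised in presenting antigen of dead cells to CD8 T cells. The genes form a list of 47 named members, selected by symbol for their known role in the pathway, with earlier results of these data known. Of these, 43 had a probe set with their symbol in the array annotation, each exactly 1, among 22206 probe sets tested. The other 4, among them Optn, Pink1 and Vmp1, were not matched by symbol and are not analysed here; 2634 of the probe sets had no single gene symbol. All cells came from naive wild-type C57BL/6 mice. Sorting by TMRM/MG gave a high fraction, measured on 4 arrays, and a low fraction, also on 4. Mitochondria take up more of the dye TMRM when their membrane potential is higher. What MG stands for, and the age and sex of the mice, are not stated in the labels. Each value is a log2 signal, and each difference is log2, high minus low. The labels do not say whether replicates came from separate animals, so each p-value reflects the spread among these arrays alone, which may be technical.

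Autophagy encloses cytoplasm in a membrane cup, the phagophore, which closes into an autophagosome and fuses with the lysosome. A kinase complex built around ULK1 starts the process, a phosphatidylinositol 3-kinase complex with Beclin 1 marks the site, and lipid transfer proteins feed the cup. Conjugation enzymes that work like those of ubiquitin then attach proteins of the LC3 and GABARAP family to its membrane, where cargo receptors bind them. Mitophagy is the removal of mitochondria in this way, either through ubiquitin marks on their surface or through receptors in the outer mitochondrial membrane. In dendritic cells the pathway is also known to deliver antigen to compartments that load MHC molecules.

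Upstream sequences are shown for Gabarapl1, the member of the LC3 and GABARAP family that passed the test, and for Ambra1, the member with the smallest adjusted p. Each line holds the 250 bases before the annotated start, 5′ to 3′, from RefSeq on GRCm38.p6. The Gabarapl1 window is chr6:129532942-129533191 on the plus strand, and the Ambra1 window is chr2:91729888-91730137 on the plus strand. Neither holds the E-box CACGTG, the core letters of the element through which TFEB and MITF act on lysosomal and autophagy genes, which would be in capitals.
Gabarapl1: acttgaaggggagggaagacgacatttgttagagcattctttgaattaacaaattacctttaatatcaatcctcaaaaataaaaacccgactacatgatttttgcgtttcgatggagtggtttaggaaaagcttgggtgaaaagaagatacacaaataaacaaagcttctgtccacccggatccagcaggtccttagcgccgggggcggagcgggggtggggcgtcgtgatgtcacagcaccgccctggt
Ambra1: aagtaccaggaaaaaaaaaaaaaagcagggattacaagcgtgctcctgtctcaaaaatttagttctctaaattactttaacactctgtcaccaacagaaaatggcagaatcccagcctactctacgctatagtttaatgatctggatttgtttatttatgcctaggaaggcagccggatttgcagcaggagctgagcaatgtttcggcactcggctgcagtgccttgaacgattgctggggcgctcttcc

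The same letters, searched on both strands (the motif reads the same on each), were found in the window from 250 bases before to 50 bases after the start in 5 of the 35 measured members that the promoter table holds (14.3%), against 8.09% of all 27025 genes in it. Of the 6 members in the table that passed the test below, Atg7 alone had a match (16.7%), and its window begins inside the gene, 27969 bases after the gene's start, so it may not be the main promoter. The matches, which share the motif only because they were searched for it, are shown with 10 bases on each side and the motif in capitals. They are descriptions of letters, not of bound sites.
Atg3, chr16:45158725-45158750, plus strand: ctccttttgtCACGTGtcctgggaga
Atg3, chr16:45158748-45158773, plus strand: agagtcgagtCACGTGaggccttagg
Atg5, chr10:44268315-44268340, plus strand: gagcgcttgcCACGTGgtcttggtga
Atg7, chr6:114670954-114670979, plus strand: tattggtggtCACGTGtgcagtaagt
Atg14, chr14:47568420-47568445, minus strand: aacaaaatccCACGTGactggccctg
Bnip3, chr7:138909599-138909624, minus strand: gcacgcgccgCACGTGccacacgctc

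In TMRM/MG-high cDC1, 5 autophagy genes rose and 3 fell. Rb1cc1 and Atg101 of the ULK initiation complex, Gabarapl1 of the GABARAP family, and the cargo receptors Calcoco1 and Tax1bp1 rose by 1.31-fold to 1.47-fold. Ambra1, which supports the Beclin 1 complex, and the conjugation genes Atg7 and Atg16l1 were 1.42-fold to 1.59-fold lower. Of the 6 mitophagy genes of the list that were measured, none passed the test, beside 8.25% of all probe sets. Among 14 further mitophagy genes outside the list, 3 rose. Pink1 of the ubiquitin route and the receptor gene Optn are not among the genes measured. Calls are at a limma adjusted p under 0.05 over all probe sets.

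The 8 calls are 18.6% of the 43 measured members, against 8.25% of all probe sets tested and 10.6% of the 15075 named probe sets that lay above the median of the negative controls in at least 1 fraction. Among all probe sets, 5.28% were called higher and 2.96% lower. The 4 high arrays lay wholly above the 4 low arrays in 9 members, and wholly below them in 4, which together are 30.2% of the members, against 16.1% of all probe sets (9.7% above and 6.37% below). The median difference of the members was 0.079, beside 0.0093 for all probe sets, and 27 members had a positive and 16 a negative difference. After quantile normalization of the tested probe sets, 22 were positive and 21 negative, with a median of 0.031. Calls among all probe sets were 64.1% higher, and 49.8% higher after quantile normalization, where the members had 4 higher and 4 lower (Atg101 was lost and Becn1 was called lower). The counts and medians describe the list, which was chosen with earlier results of these data known and was not itself tested.

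**Figure D1:**
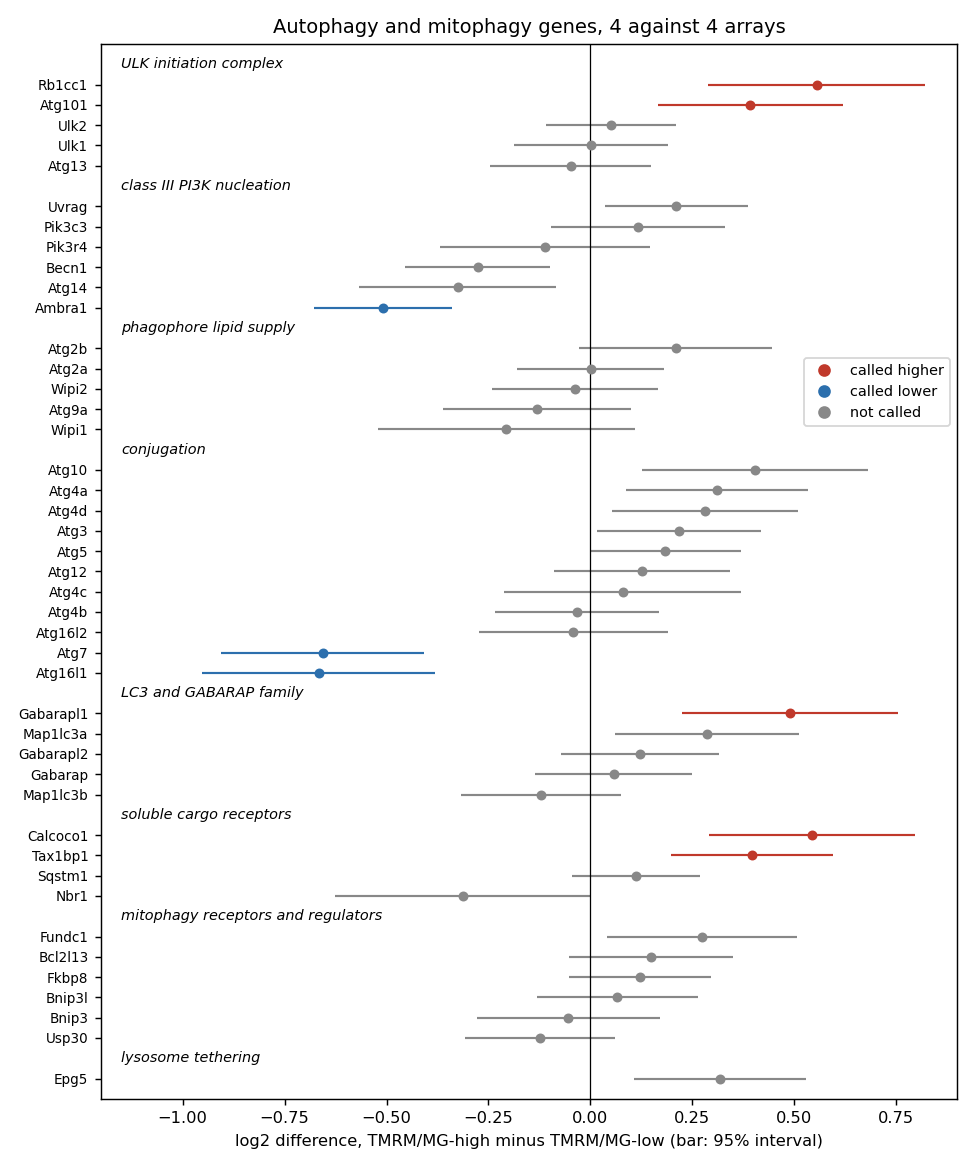
Log2 difference (TMRM/MG-high minus TMRM/MG-low, 4 arrays each) of each of the 43 measured members, grouped by role; points are the limma estimates and bars their 95% intervals. The 5 calls above 0 lie in initiation, the GABARAP family and the cargo receptors, and the 3 below 0 in nucleation and conjugation.

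Other measures also separated the fractions, and every result here is between the same arrays. All 10 cDC1 markers were measured and none was called (3 had an unadjusted p under 0.05), with mean levels of 12.002 to 12.15 on the high and 11.92 to 12.20 on the low arrays. The groups did not overlap in 40% of these markers, against 16.1% of all probe sets. Xcr1 and Cd8a were higher and Clec9a and Wdfy4 lower on the high arrays, and such opposite shifts can cancel in a mean. Plasmacytoid dendritic cell markers were called higher in 9 of 11, with mean levels of 10.06 to 10.47 against 9.27 to 9.48. T and NK cell markers were called lower in 3 of 9 (8.89 to 9.50 against 9.24 to 10.09), and neutrophil markers in 1 of 7 (8.60 to 9.58 against 9.45 to 10.34). All 9 T and NK cell and all 7 neutrophil markers had negative differences, with 7 and 3 at an unadjusted limma p under 0.05. By replicate number, the T and NK cell means were 8.96, 9.27, 8.89 and 9.50 on the high arrays. On the low arrays they were 9.88, 10.09, 9.24 and 10.01. Neutrophil means were 9.11, 9.37, 9.58 and 8.60 against 9.45, 10.34, 9.95 and 9.60. Each high array was thus below the low array of the same number in both lists. Macrophage and monocyte markers had 1 rise among 9 (9.43 to 9.88 against 9.40 to 9.59), and cDC2 (9 measured), B cell (7) and erythroid markers (4) had no call (1, 0 and 0 with an unadjusted p under 0.05), with overlapping levels in each list. No defining marker of any list was at 0, since an array signal has no true zero. Poly-A spike-ins, RNAs added to each sample, averaged 6.32 ± 0.44 on the high and 7.55 ± 0.28 on the low arrays (SD, n = 4 each). Hybridization controls, added after labelling, were at 11.74 to 11.90 on the high and 12.30 to 12.61 on the low arrays, without overlap, and positive controls averaged 10.3 and 10.2. The part of other cells, RNA input or hybridization in the differences of autophagy genes was not tested, and with bulk RNA a change per cell and a change in the share of a cell type cannot be told apart.

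The ULK initiation complex had 2 rises among its 5 measured members. Rb1cc1 encodes FIP200, the large scaffold on which the complex assembles. Its signal was 8.42, 8.96, 8.75 and 8.85 on the high arrays and 8.14, 8.01, 8.38 and 8.24 on the low arrays. The lowest high array lay just above the highest low array, and the groups did not overlap. The difference was 0.55 (SE 0.12, adjusted p = 0.022), a 1.47-fold rise. Atg101, a small subunit that binds and stabilises Atg13, measured 10.61, 10.87, 10.76 and 10.73 on the high arrays. It measured 10.09, 10.35, 10.49 and 10.48 on the low arrays, again without overlap, and the difference was 0.39 (SE 0.10, adjusted p = 0.040). The kinases themselves, Ulk1 and Ulk2, and the subunit Atg13 differed by -0.049 to 0.051, and none passed. The Atg101 call was lost after quantile normalization, and both rises were lost without 1 of several arrays, as given at the end.

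The class III phosphatidylinositol 3-kinase complex, which makes the lipid mark of the phagophore, had 1 fall among 6 members and no rise. Ambra1, an adaptor that links Beclin 1 to ubiquitin ligases and to ULK1, measured 11.98, 12.06, 12.06 and 12.05 on the high arrays and 12.64, 12.58, 12.51 and 12.46 on the low arrays. Both groups were tight, with SDs of 0.040 and 0.078, and lay far apart for that spread. The difference was -0.51 (SE 0.078), 1.42-fold lower, with the smallest adjusted p of the members (0.0059). Becn1, the Beclin 1 gene, measured 10.32 to 10.48 on the high and 10.60 to 10.79 on the low arrays, without overlap, but did not pass (-0.28, adjusted p = 0.058). Atg14, the subunit that directs the complex to autophagy, differed by -0.33 (adjusted p = 0.090). Uvrag, which takes the place of Atg14 in the endosomal form of the complex, differed by 0.21 (adjusted p = 0.13), with the groups apart. The kinase Pik3c3 (0.12) and its regulatory subunit Pik3r4 (-0.11) overlapped between the groups. Becn1, Atg14, Uvrag, Pik3c3 and Pik3r4 did not pass in the main comparison and are named for completeness, after their values were seen. Of 12 other settings that kept all arrays, Becn1 was called in 5, Atg14 and Uvrag in 1 each, and Pik3c3 and Pik3r4 in 0.

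Genes that supply lipid to the phagophore were not called by limma, and 0 had an unadjusted p under 0.05. Of 5 measured, Atg2b, a lipid transfer protein gene, had the smallest p. It measured 9.68, 9.91, 9.54 and 9.98 on the high and 9.73, 9.47, 9.56 and 9.51 on the low arrays, and the groups overlapped (0.21, SE 0.11, adjusted p = 0.26). The others, Atg2a, the scramblase gene Atg9a, and Wipi1 and Wipi2, whose proteins read the lipid mark, differed by -0.21 to 0.0010. The mean of Wipi1 lay under the median of the negative controls on high (6.46 against 6.86) and low arrays (6.67 against 6.76), so its level and the size of its difference (-0.21) are uncertain. It was the only measured member below that median in both fractions.

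The conjugation machinery held the largest falls. Atg7 encodes the activating enzyme that serves both conjugation reactions of the pathway. It measured 10.27, 10.32, 10.23 and 10.45 on the high arrays and 11.22, 11.13, 10.76 and 10.79 on the low arrays. The groups did not overlap, and low replicates 3 and 4 lay nearest the high arrays. The difference was -0.66 (SE 0.11, adjusted p = 0.010), 1.58-fold lower.

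Atg16l1 encodes the partner that brings the Atg12 and Atg5 conjugate to the membrane and so sets where LC3 is attached. It measured 8.54, 8.45, 8.34 and 8.64 on the high arrays and 9.42, 9.29, 8.76 and 9.17 on the low arrays. Low replicate 3 was the lowest of its group but still above every high array, and T and NK cell markers (9.24) were at their lowest low-group level on the same array. The highest low-group levels were on different arrays, replicate 1 for Atg16l1 and replicate 2 for those markers (10.09). A link between the 2 was not tested. The difference was -0.67 (SE 0.13, adjusted p = 0.015), 1.59-fold lower. Without low replicate 3, Atg16l1 differed by -0.80 and Atg7 by -0.73.

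The other 9 conjugation genes did not pass. Their differences ran from -0.042 to 0.40, and 7 of them were positive. The protease genes that trim LC3 and release it from membranes were Atg4a (0.31), Atg4b (-0.033), Atg4c (0.079) and Atg4d (0.28). Atg10, the conjugating enzyme gene for Atg12, had the largest positive value (0.40, SE 0.13, adjusted p = 0.072). The remaining values were 0.22 for Atg3, the conjugating enzyme gene for LC3, 0.18 for Atg5, 0.13 for Atg12 and -0.042 for Atg16l2. Within 1 machinery, then, an activating enzyme and a targeting subunit were lower, while no other member passed in either direction.

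**Figure D2:**
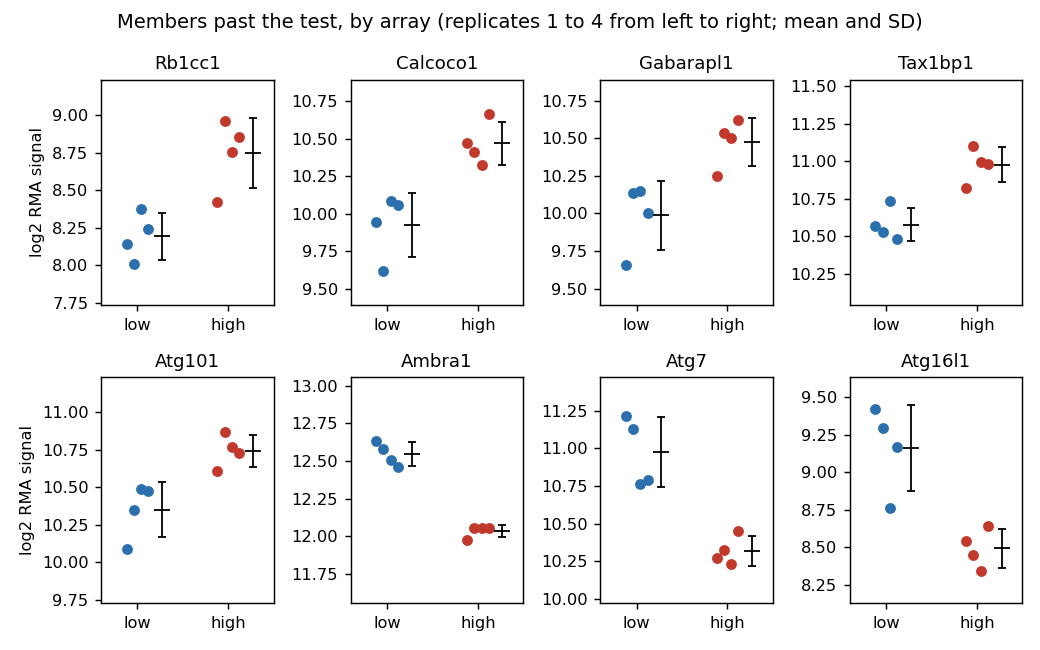
Log2 RMA signal of the 8 members past the test on each of the 4 low (blue) and 4 high (red) arrays, with replicates 1 to 4 from left to right and the mean and SD in black; every panel spans the same log2 range. In all 8 panels the groups do not overlap, with the high arrays above for Rb1cc1, Calcoco1, Gabarapl1, Tax1bp1 and Atg101 and below for Ambra1, Atg7 and Atg16l1.

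The LC3 and GABARAP family, the proteins attached to the membrane, had 1 rise among 5. Gabarapl1 measured 10.25, 10.53, 10.50 and 10.62 on the high arrays and 9.66, 10.14, 10.15 and 10.001 on the low arrays. The groups did not overlap, with high replicate 1 and low replicate 1 each the lowest of its group. The difference was 0.49 (SE 0.12, adjusted p = 0.033), 1.40-fold higher. Gabarap measured 11.99, 12.27, 12.15 and 12.20 against 12.02, 12.21, 12.13 and 12.03 on the low arrays. Its groups covered nearly the same range (0.057, 95% interval -0.14 to 0.25), and the sign turned to -0.019 after quantile normalization. Gabarapl2 measured 11.09, 11.16, 11.10 and 11.23 against 10.92, 10.93, 11.21 and 11.04 (0.12, 95% interval -0.073 to 0.31).

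The LC3 genes leaned to opposite sides, and neither passed. Map1lc3a measured 7.70, 8.12, 7.92 and 8.03 on the high and 7.57, 7.59, 7.67 and 7.80 on the low arrays. High replicate 1 lay inside the low range, and the difference was 0.29 (SE 0.10, adjusted p = 0.11). Map1lc3b, the form most used as an autophagosome marker, measured 11.50, 11.76, 11.53 and 11.69 against 11.67, 11.82, 11.82 and 11.64. Its groups overlapped (-0.12, SE 0.090, adjusted p = 0.44).

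Soluble cargo receptors, which tie cargo to LC3 and GABARAP proteins, had 2 rises among 4 measured. Calcoco1, a receptor known for turnover of endoplasmic reticulum and Golgi membrane, measured 10.47, 10.41, 10.33 and 10.66 on the high arrays and 9.94, 9.62, 10.09 and 10.06 on the low arrays. The groups lay apart, and low replicate 2 was the lowest array. The difference was 0.54 (SE 0.12, adjusted p = 0.020). Tax1bp1, a receptor for ubiquitin-marked cargo, measured 10.82, 11.10, 11.00 and 10.98 on the high and 10.57, 10.53, 10.73 and 10.48 on the low arrays. The groups lay apart here too, by less than 0.1 between low replicate 3 and high replicate 1, and the difference was 0.40 (SE 0.091, adjusted p = 0.025). Sqstm1, the gene of the receptor p62, measured 12.43 to 12.46 on the high and 12.30 to 12.37 on the low arrays. Its groups did not overlap, yet the difference was small (0.11, SE 0.072, adjusted p = 0.36) and did not pass. Nbr1, a relative of p62, differed by -0.31 (SE 0.14, adjusted p = 0.20), with overlap.

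Mitophagy receptors in the outer mitochondrial membrane, and Usp30 listed with them, were not called by limma, and 1 gene had an unadjusted p under 0.05. With 8.25% of all probe sets called, 0 calls among 6 genes is little different from that share. Of the 6 measured genes, 4 had positive and 2 negative differences, with a median of 0.094. Fundc1, a receptor known for mitophagy in low oxygen, had the smallest p. It measured 11.10, 11.28, 11.03 and 10.94 on the high arrays and 10.75, 10.89, 11.00 and 10.60 on the low arrays. High replicate 4 lay below low replicate 3, and the difference was 0.27 (SE 0.11, 95% interval 0.041 to 0.51, adjusted p = 0.13).

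Bnip3 and Bnip3l encode related receptors that bind LC3 and GABARAP proteins directly. Bnip3 measured 10.09, 9.83, 9.93 and 9.80 on the high and 10.16, 10.04, 9.78 and 9.88 on the low arrays. The groups covered the same range (-0.054, 95% interval -0.28 to 0.17). Bnip3l, the receptor that clears mitochondria from maturing red cells, measured 11.25, 11.28, 11.39 and 11.57 against 11.22, 11.37, 11.35 and 11.29. It differed by 0.066 (95% interval -0.13 to 0.26), and the sign turned to -0.0086 after quantile normalization. The receptors Bcl2l13 (0.15) and Fkbp8 (0.12) and Usp30, a mitochondrial deubiquitinase that opposes mitophagy (-0.12), overlapped between the groups. The upper bounds of the Bnip3 and Bnip3l intervals lie below the fitted rises of all 5 called genes, whereas that of Fundc1 does not. Those rises belong to genes picked because they passed, and have intervals of their own. The lowest of these, for Atg101, begins at 0.166, below the bounds of Bnip3 (0.171) and Bnip3l (0.263). Adjusting for the spike-in mean moved Bnip3 to 0.34, above its bound, and Bnip3l to -0.10. Whether the receptors differ from the called genes was not tested.

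**Figure D3:**
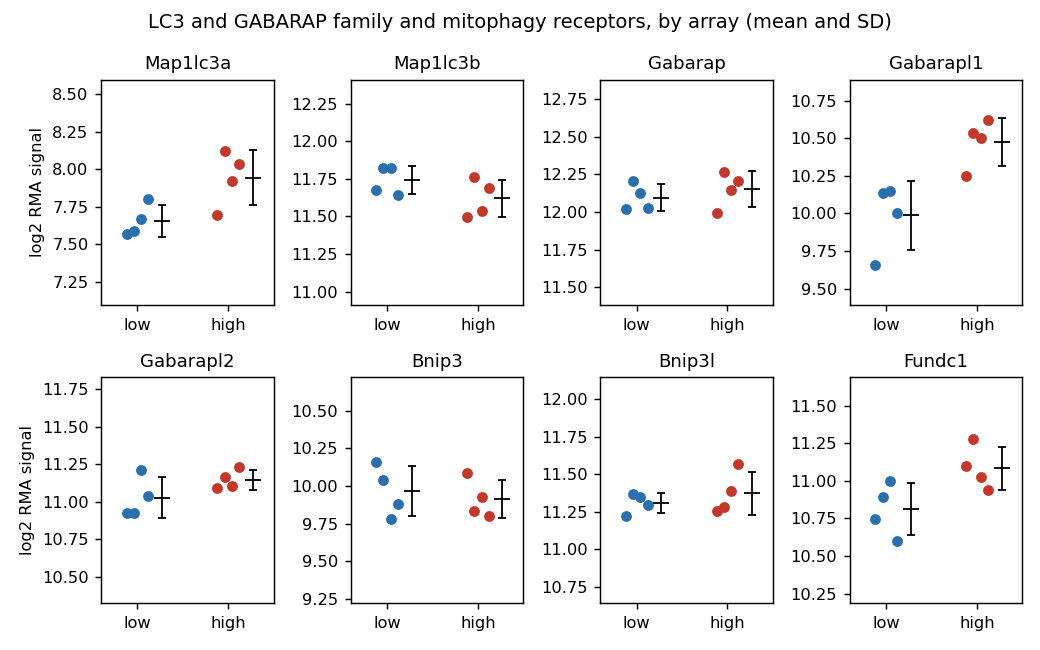
Log2 RMA signal of the 5 LC3 and GABARAP family genes and 3 mitophagy receptors on each low (blue) and high (red) array, with mean and SD in black; every panel spans the same log2 range. Gabarapl1 is the one panel in which the groups do not overlap (9.66 to 10.15 low and 10.25 to 10.62 high).

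Epg5, the tether that lets autophagosomes fuse with late endosomes and lysosomes, measured 8.34, 8.43, 8.45 and 8.43 on the high and 8.13, 8.27, 8.13 and 7.84 on the low arrays. The groups did not overlap, and low replicate 4 was the lowest. The difference was 0.32 (SE 0.097, adjusted p = 0.065) and did not pass.

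The roles were not tested against each other. Median differences were 0.051 for the ULK complex, -0.19 for nucleation, -0.037 for lipid supply, 0.13 for conjugation, 0.12 for the LC3 and GABARAP family, 0.25 for cargo receptors and 0.094 for mitophagy. After quantile normalization the ULK complex was at -0.0054 and the LC3 and GABARAP family at 0.040, while nucleation stayed negative (-0.25) and cargo receptors positive (0.18). Adjusting for the spike-in mean turned the medians of conjugation (-0.077), the LC3 and GABARAP family (-0.097) and lipid supply (0.027). Leaving out 1 array turned no role's median but moved 4 by over 1.5 times: nucleation to -0.13 without high replicate 1, the LC3 and GABARAP family to 0.18 without low replicate 3, and mitophagy to 0.060 and 0.062 without low replicate 1 and high replicate 4. Lipid supply ran from -0.11 without low replicate 1 to -0.0041 without low replicate 2, and also moved without high replicate 2 (-0.020), high replicate 3 (-0.065) and low replicate 4 (-0.0059). The mean level of the ULK complex was 9.32 to 9.47 on the high and 9.17 to 9.26 on the low arrays, without overlap. That of the cargo receptors was 10.48 to 10.69 and 10.36 to 10.48, and its groups nearly met (10.481 on high replicate 3 and 10.476 on low replicate 4). Conjugation as a whole overlapped fully (9.50 to 9.61 high and 9.48 to 9.59 low), since the falls of Atg7 and Atg16l1 stood against positive values of 7 others. These are descriptions of few genes per role, and members are not replicates of a condition.

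**Figure D4:**
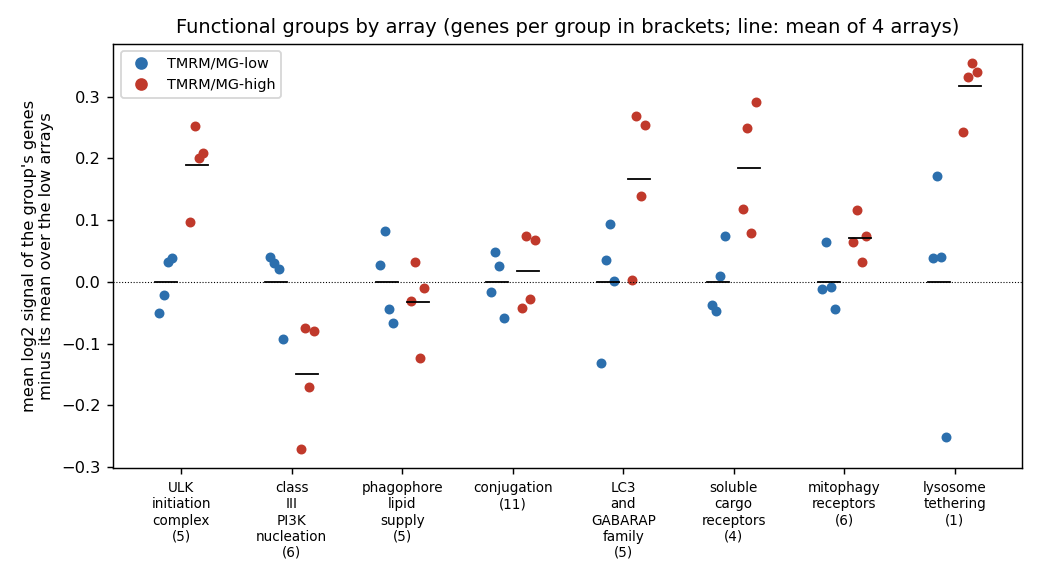
Mean log2 signal of the measured genes of each role on each array, minus the role's mean over the low arrays, for low (blue) and high (red) arrays; the line is the mean of 4 arrays and the number in brackets is the count of genes. The high arrays lie above the low arrays for the ULK complex, Epg5 and, by a very narrow margin, cargo receptors, while nucleation, lipid supply, conjugation, the LC3 and GABARAP family and mitophagy overlap.

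Paralogues were compared by the log2 ratio of their signals on the same array, which shows unequal change and not which gene changed. Over 15 pairs in 8 families, 5 ratios did not overlap between the fractions, each with the smallest p that a two-sided exact permutation test of 4 against 4 arrays can give (exact p = 0.0286, 0.0858 after Benjamini-Hochberg adjustment over the pairs). At that smallest p, at least 9 of the 15 pairs would have to be apart for any to pass after adjustment, so the adjusted value says nothing about the 5. Gabarap minus Gabarapl1 was 1.58 to 1.74 on the high and 1.98 to 2.36 on the low arrays, a difference of -0.43. Map1lc3a minus Map1lc3b was -3.80 to -3.61 on the high and -4.23 to -3.84 on the low arrays, a difference of 0.41. Atg16l1 minus Atg16l2 was -1.38 to -1.0005 on the high and -0.99 to -0.11 on the low arrays, a difference of -0.62. In the protease family Atg4b was lower relative to both Atg4a and Atg4d, by 0.34 for Atg4a minus Atg4b and -0.31 for Atg4b minus Atg4d. Ulk1 against Ulk2 (-0.050, exact p = 0.4) and Bnip3 against Bnip3l (-0.12, exact p = 0.457) overlapped.

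Further genes of the pathway, listed for their role beside the 47 and also with earlier results known, are given by counts. Of 66 measured out of 67, 11 rose and 1 fell (18.2%), with a median difference of 0.041 beside 0.0093. Among all probe sets 8.25% were called (5.28% higher and 2.96% lower). The share was 10.6% of the named probe sets above the median of the negative controls in at least 1 fraction. Tmem41b, a scramblase gene of phagophore growth, rose by 0.49 (SE 0.082, adjusted p = 0.0091), and Ei24 (0.45), the GTPase gene Rab1a (0.45) and Sh3glb1 (0.27), whose product binds Uvrag, rose too. Among 14 mitophagy genes outside the list, Nipsnap2, which encodes a mitochondrial signal for autophagy (0.51, SE 0.094, adjusted p = 0.012), and the mitochondrial ubiquitin ligase genes Mul1 (0.54) and March5 (0.32) rose, and 12 of 14 were positive with a median of 0.24. Fusion genes had 1 rise among 13, Vps41 of the HOPS tethering complex (0.39), and further receptors 1 among 11, Ncoa4, the ferritin receptor (0.42). Of 10 transcription factors, Hif1a (0.41) and Mitf (0.33) rose and Usf1, another E-box factor, fell by 0.34 (SE 0.082, adjusted p = 0.029).

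The calls were not equally firm when arrays were left out. Ambra1 (-0.54 to -0.48) and Atg7 (-0.73 to -0.58) kept an adjusted p under 0.05 in all 8 omissions of 1 array. Atg16l1 kept it in 6, failing without high replicate 2 or 3, and Calcoco1 in 6, failing without high replicate 2 or 4. Rb1cc1 kept it in 3 (failing without high replicate 2, 3 or 4, or low replicate 1 or 2), and Atg101, Gabarapl1 and Tax1bp1 in 2 each (failing without those or low replicate 4). The differences themselves stayed positive, at 0.48 to 0.66 for Rb1cc1, 0.31 to 0.44 for Atg101, 0.38 to 0.56 for Gabarapl1, 0.36 to 0.45 for Tax1bp1 and 0.44 to 0.60 for Calcoco1, and Atg16l1 ran from -0.80 to -0.58. The number of members called higher ran from 0, without high replicate 2 or 4, to 6, and the number called lower from 2 to 3. The share of all probe sets called moved with the array left out: 9.25%, 1.91%, 2.13% and 3.4% without high replicates 1 to 4, and 3.03%, 3.31%, 11.1% and 3.99% without low replicates 1 to 4, against 8.25% over all arrays. With the mean poly-A spike-in level as a covariate, limma called 0 of all probe sets (1132 had an unadjusted p under 0.05) and 0 members, 2 members had an unadjusted p under 0.05 (Ambra1, -0.50, and Atg4d, 0.52), and Rb1cc1 turned to -0.024. That level differed between the fractions on every array, so covariate and fraction are hard to separate.

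**Figure D5:**
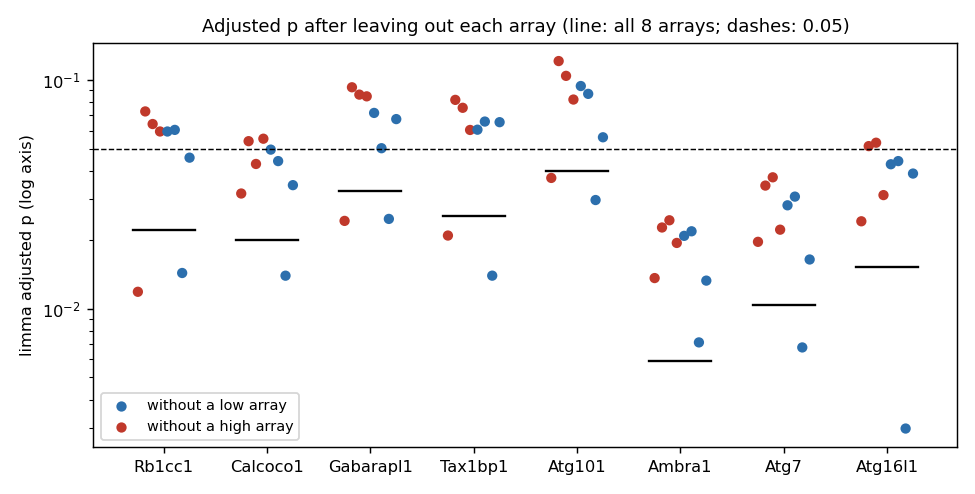
Limma adjusted p (log axis) of the 8 called members after leaving out each low (blue) or high (red) array, with the value from all 8 arrays as a line and 0.05 as dashes. All omissions of Ambra1 and Atg7 lie under 0.05, while for Atg101 they reach 0.121.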

How the data were processed

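RNA of 8 sorted cDC1 samples was measured on Affymetrix whole-transcript arrays. The authors deposited log2 signals, made with RMA in Affymetrix Expression Console 1.1 per the submitters' processing notes. RMA gives the probe signals of all arrays 1 distribution, which hides any change common to most genes. The deposited probe set values did not share 1 distribution exactly, and their array medians ran from 8.11 to 8.16. The build behind the annotation was not given in the sources used here. Control probe sets (6640 of 28846) were left out. The fractions were compared with limma 3.58.1 (lmFit and eBayes, R 4.3.3), two-sided, without a block, with Benjamini-Hochberg adjustment over 22206 probe sets and a threshold of 0.05. Background was taken as the median of 5222 negative controls. The procedure was tested on simulated data. The number of arrays limits the precision.

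Members and lists were chosen with earlier results of these data known. By rule, each called member, the LC3 and GABARAP family, Bnip3, Bnip3l, Fundc1 and the lowest p of a role without calls are given by array, the others by range and counts. Those named beyond it were chosen after their values were seen. Called genes of the further list are named. Alternatives were the replicate block, scalings, filters, variance models, thresholds, gene summaries, a spike-in covariate and leaving out each array. No protein sequences were used. Figures were drawn with matplotlib 3.10.9.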

Additional observations from a re-analysis of the deposited data

Results flagged for a closer look

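Single arrays stood apart from the other 3 of their group in 4 of 86 groups of 4, where chance gives about 4.3. Ambra1 was 11.98 on high replicate 1, below the others at 12.05 to 12.06. Wipi2 was 10.05 on low replicate 1, below 10.33 to 10.39. Atg5 was 10.88 on high replicate 4, above 10.72 to 10.73, and 10.73 on low replicate 3, above 10.52 to 10.55.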

How the results depend on the processing

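Replicate numbers were not taken as pairs. Over all probe sets, same-numbered deviations correlated at 0.015 to 0.27, and 1 of 4 high arrays correlated best with its own number. Most probe sets vary little, so these correlations cannot show that the arrays were unpaired. Some variable cell type markers ran alike by number. Lair1 measured 9.34, 9.76, 9.42 and 10.23 on the high and 8.37, 8.96, 8.61 and 9.43 on the low arrays. S100a8 measured 9.14, 9.66, 9.60 and 8.59 against 9.87, 10.66, 10.47 and 9.35. Others, such as Fcer2a (8.61, 8.69, 8.65 and 8.95 against 9.37, 8.02, 8.36 and 8.80), did not. These were picked after their values were seen. The labels do not say whether same-numbered arrays belong together. With the replicate block 6 members were higher and 4 lower. These were all 8 main calls, with Atg10 added as higher and Nbr1 as lower (limma adjusted p = 0.046). The main counts are 5 and 3. Without probe sets below the negative control median in both fractions they were 5 and 4, with Becn1 added. With an intensity trend and robust fit they were 7 and 4 (Becn1, Uvrag and Atg10 added). With array weights they were also 7 and 4 (Becn1, Atg4a and Epg5 added). They were 8 and 5 at an adjusted p under 0.1, 0 and 1 at 0.01, and 0 and 0 both without moderation at unequal variances (17 members had an unadjusted p under 0.05) and with the spike-in covariate (2 members), which also moved the members' median to 0.0017. Leaving out 1 array gave 0 to 6 higher. For the further pathway genes, 11 higher and 1 lower became 14 and 3 at 0.1, 1 and 0 at 0.01, and 0 and 0 at unequal variances and with the covariate. The lower count was 2 with the block and after quantile normalization and 4 with an intensity trend, and omissions gave 3 to 14 higher and 0 to 2 lower. Signs turned for 5 members after quantile normalization (Gabarap -0.019, Bnip3l -0.0086, Ulk1 -0.015, Ulk2 -0.0054 and Atg2a -0.055), all uncalled, for 2 after median centring and 1 with array weights (Ulk1 and Atg2a between them), and for 6 uncalled members in some omission of 1 array (for Bnip3 0.011 without low replicate 1, over a range from -0.11). With the covariate 11 turned: Rb1cc1 (-0.024), called without it, and Map1lc3a (-0.11), Gabarap (-0.097), Gabarapl2 (-0.092), Bnip3 (0.34), Bnip3l (-0.10), Atg4c (-0.47), Wipi1 (0.37), Atg12 (-0.098), Atg13 (0.090) and Pik3c3 (-0.052). The causes were not tested. Each member has 1 probe set, so averaging probe sets changed no member.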
